A study of Mus musculus with 32 samples.

Results

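*Hes1*, *Hes5*, *Hes6*, *Hey1*, *Hey2*, *Heyl* and *Nrarp* were followed through RNA-seq of mouse embryonic stem cells (ESCs). In these cells the DNA-binding partner of Notch had been deleted or left in place. Apart from *Hes6*, the transcripts are usually read as a response to Notch. The 7 genes were found by symbol among the 51826 genes counted, and each matched a single Gencode identifier. Levels are counts scaled by spiked-in RNA standards, called normalised counts here, and levels of different genes are compared only as FPKM (fragments scaled to exon length and library size). Of the 7, 5 had enough counts to be tested, and *Hes1*, *Hes6*, *Hey1* and *Nrarp* reached FPKM 1 in at least one condition.

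When a Notch receptor meets its ligand, its intracellular domain is released, moves to the nucleus and binds RBPJ, a protein that sits on DNA at its targets. With that domain RBPJ activates transcription, and without it RBPJ recruits corepressors and keeps the same targets low, so removal of RBPJ can lower a target through lost activation or raise it through lost repression. HES and HEY proteins are basic helix-loop-helix repressors, which act with Groucho corepressors and restrain neuronal differentiation genes. Apart from *Hes6*, the genes named here are classical targets of this switch. NRARP is a small feedback inhibitor that binds the Notch intracellular complex, and HES6 is an atypical family member known to oppose HES1.

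All cells derive from RGd2, an ESC line with a destabilised GFP reporter at *Rex1*. Unmodified RGd2 cells were sampled in 2i (inhibitors of MEK and of GSK3), in 2i over 5 passages (2i-p5), at 16 h and 72 h after 2i withdrawal in N2B27 (N16h and N72h), and at the second passage in Chiron, the GSK3 inhibitor alone (CHp2). *Rbpj*-KO and *Etv5*-KO lines were sampled in 2i and at N16h, lines lacking *Etv5* and *Rbpj* (ER-dKO) in Chiron at passage 5 (CHp5), and lines lacking *Etv5*, *Tcf3* (gene symbol *Tcf7l1*) and *Rbpj* (ETR-tKO) at passage 5 in N2B27 without inhibitors (Np5). The deletions were made with pairs of CRISPR guides, each knockout library comes from a clonal line, and the lines of the 2i and N16h series had been expanded in Chiron with LIF before they were moved to 2i. There are 32 libraries in 11 conditions, with 3 libraries each, or 2 for *Etv5*-KO at N16h. The study's methods name RGd2 at N16h, and not *Etv5*-KO, as the short group, and the labels were followed here. At 2i and N16h, 2 of the RGd2 libraries come from parental cells and 1 from a clonal line. The study calls its RGd2 and *Rbpj*-KO replicates in these cultures biological and plated in parallel, so p-values measure the spread between lines and parallel cultures. General pluripotency markers (*Pou5f1*, *Sox2*, *Sall4*) were above FPKM 1 in all 11 conditions, and the 6 naive markers in every condition but N72h, where 4 of 6 were.

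The *Rbpj* guides are shown because every comparison of *Rbpj*-KO with RGd2 rests on this deletion. Their protospacers lie in exon 5, chr5:53645980-53645999, and exon 7, chr5:53649718-53649737 (GRCm38, minus strand), 3718 bases apart in a transcript of 11 exons. Capitals mark the PAM.
*Rbpj* exon 5 guide: tgacctttatccgcttgctgAGG
*Rbpj* exon 7 guide: gcttgacagtctgcccgtaaTGG

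*Rbpj* transcripts were counted over the whole gene, including exons outside the deletion. They stood at 4469 ± 571 normalised counts in RGd2 and 1097 ± 139 in *Rbpj*-KO in 2i (SD, n = 3 each), and at 12574 ± 224 and 2697 ± 173 at N16h. The ETR-tKO libraries held 1559 to 2348 normalised counts of *Rbpj* against 2830 to 3385 in 2i-p5. Of the ER-dKO libraries 2 held 1138 and 1307, and the library labelled ER-dKO CHp5 replicate 12 held 3489, above every 2i-p5 library, so that this label is not borne out by *Rbpj* and the ER-dKO differences and shares are also given without it. *Etv5* was at 2241 ± 146 in *Etv5*-KO against 15475 ± 1338 in RGd2 in 2i, and *Tcf7l1* at 85.4 ± 49.2 in ETR-tKO against 516 ± 67.2 in 2i-p5. Library totals ran from 5986857 to 71439411 counts on genes. The shallowest is RGd2 2i replicate 33, the clonal RGd2 line in 2i, which also had the highest *Hes1* and *Nrarp* of its group. It stood apart from the other RGd2 libraries in 2i, with a chi-square per gene of 44.33 and 43.28 against them, where those differed from each other by 8.44.

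The windows upstream of the members are shown because RBPJ and the HES family bind DNA directly and *Hes1*, *Hey1* and *Nrarp* moved together. RefSeq windows were at hand for *Hes5*, *Hes6*, *Hey2* and *Nrarp*, and *Hes1*, *Hey1* and *Heyl* had none in the table used. Each run below is the 250 bases before the start site, written 5′ to 3′ on the strand of the gene in GRCm38.p6, with matches to TGGGAA, the core of the RBPJ motif, or to CACGNG, which holds HES and HEY binding boxes, in capitals on either strand (TTCCCA is the reverse complement of TGGGAA).
*Hes5*, chr4:154960673-154960922, plus strand: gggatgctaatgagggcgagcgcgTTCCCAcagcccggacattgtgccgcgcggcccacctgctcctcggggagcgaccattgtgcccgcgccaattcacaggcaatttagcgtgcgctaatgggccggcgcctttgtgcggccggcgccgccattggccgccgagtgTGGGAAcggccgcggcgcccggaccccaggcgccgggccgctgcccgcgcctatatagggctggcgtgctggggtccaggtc
*Hey2*, chr10:30842784-30843033, minus strand: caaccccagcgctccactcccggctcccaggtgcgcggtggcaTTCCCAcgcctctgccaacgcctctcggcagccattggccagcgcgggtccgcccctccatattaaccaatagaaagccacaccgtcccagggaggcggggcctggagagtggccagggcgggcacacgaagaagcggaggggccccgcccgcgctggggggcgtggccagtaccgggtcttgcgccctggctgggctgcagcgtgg
*Nrarp*, chr2:25180508-25180757, plus strand: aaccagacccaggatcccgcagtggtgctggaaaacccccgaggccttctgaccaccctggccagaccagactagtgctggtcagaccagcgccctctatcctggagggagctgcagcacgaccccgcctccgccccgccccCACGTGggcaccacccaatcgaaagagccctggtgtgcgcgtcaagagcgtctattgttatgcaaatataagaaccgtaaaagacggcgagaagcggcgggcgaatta
*Hes6*, chr1:91414039-91414288, minus strand: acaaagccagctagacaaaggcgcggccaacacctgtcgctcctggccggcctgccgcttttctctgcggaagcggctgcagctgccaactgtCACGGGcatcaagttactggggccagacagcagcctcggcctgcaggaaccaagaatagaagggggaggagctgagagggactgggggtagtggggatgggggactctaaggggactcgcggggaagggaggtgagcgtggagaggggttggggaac
*Hes5* held 2 matches to TGGGAA, 1 on each strand, and *Hey2* held 1. The *Nrarp* window held no TGGGAA and a CACGTG, which reads the same on both strands, while *Hes6* held no TGGGAA and a single CACGGG. A second annotated *Hes6* start, chr1:91413223-91413472, held neither. Of all 32841 windows of this length, 21.6% held TGGGAA and 23.5% held CACGNG on either strand, so such matches are common, and they describe letters and not binding sites.

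**Figure D1:**
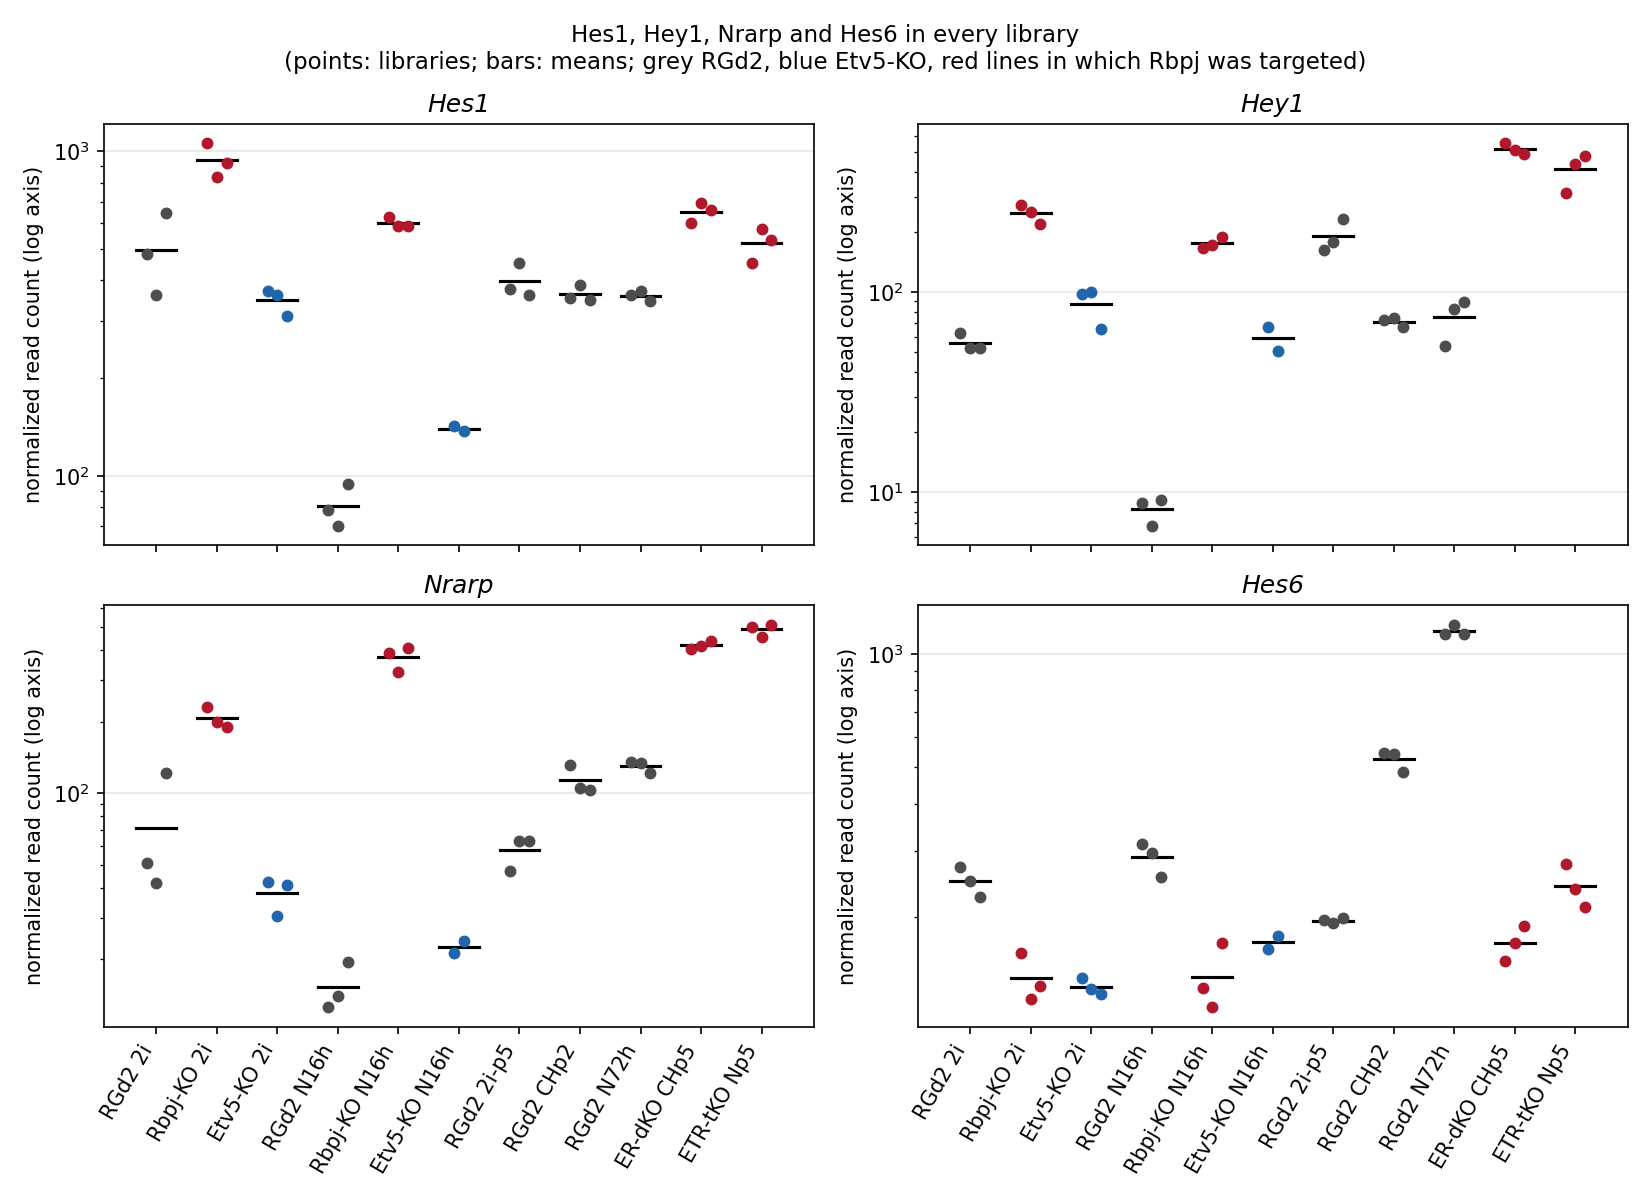
Normalised counts of Hes1, Hey1, Nrarp and Hes6 (y axis, log scale) in every library, with the 11 conditions along the x axis, 1 point per library and a bar at the condition mean, for RGd2 (grey), Etv5-KO (blue) and lines in which Rbpj was targeted (red). Hes1, Hey1 and Nrarp are lowest in RGd2 at N16h, every red point of Nrarp lies above every grey and blue one, and Hes6 is highest in RGd2 at N72h, at 1130 to 1196.

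The plot of normalised counts by library separates 4 kinds of pattern. *Hes1* and *Hey1* had their lowest level in RGd2 at N16h and were higher in *Rbpj*-KO than in RGd2 of the same culture. *Nrarp* did the same, and every library targeted at *Rbpj* stood above every other. *Hes6* was highest at N72h and lower in *Rbpj*-KO, and *Hes5*, *Heyl* and *Hey2* stayed low. Over the 11 condition means of log2 levels, Pearson's r was 0.837 for *Hes1* with *Hey1*, 0.824 for *Hes1* with *Nrarp* and 0.834 for *Hey1* with *Nrarp*, and −0.209, −0.325 and −0.0345 for *Hes6* with *Hes1*, *Hey1* and *Nrarp*. These are descriptions over 11 conditions that share genotypes, cultures and a spike-in scale.

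*Hes1* (ENSMUSG00000022528.7, chr16:30064384-30067796) encodes the best known repressor of the family. Its level was lowest in RGd2 at N16h, next in *Etv5*-KO at N16h, and highest in *Rbpj*-KO in 2i, and these were set apart from the rest. In between, *Etv5*-KO in 2i, N72h, CHp2, 2i-p5 and RGd2 in 2i overlapped with their neighbours in that order, ETR-tKO overlapped with RGd2 in 2i, and *Rbpj*-KO at N16h overlapped with ER-dKO.

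*Nrarp* (ENSMUSG00000078202.3, chr2:25180758-25183339, a gene of 1 exon) gave the cleanest split by the state of *Rbpj*. It ranged from 12.6 to 136 normalised counts over the 20 libraries with an unmodified *Rbpj* locus, with a median of 49.1, and from 190 to 511 over the 12 libraries in which *Rbpj* was targeted, with a median of 406. No library of the first kind reached any of the second, whatever the culture. The share of all genes that split in this way is not given here, and each kind pools several cultures and genotypes. Without the library labelled ER-dKO CHp5 replicate 12 the range of the second kind is the same over 11 libraries, with a median of 403. For *Hes1* the same ranges overlapped, at 70.0 to 646 and 452 to 1058, and so did those of *Hey1*, at 6.79 to 232 and 167 to 554. For *Hes6* they ran from 124 to 1196 and from 115 to 276.

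The levels of these genes in naive cells with *Rbpj* deleted were read from *Rbpj*-KO against RGd2 in 2i. In this comparison 4 of the 7 members were called, 3 higher and 1 lower, where a call needs a p under 0.05 by edgeR's quasi-likelihood test, adjusted over all genes tested after Benjamini-Hochberg, as well as a group mean of FPKM 1 or more on either side. Among all 11546 genes that met the FPKM minimum, 11.4% were called, 5.24% higher and 6.12% lower. Of the members 4 met that minimum here. In every comparison only members that meet it can be called, and the shares of all genes are over genes that meet it. The median log2 difference over all genes was −0.064. Scaling on the genes themselves (TMM) in place of the spike-ins sets this median near 0 and moves it by −0.46 to 0.36 depending on the comparison, so the median is given wherever its size exceeds 0.1.

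In 2i, *Hes1* stood at 482, 360 and 646 normalised counts in the RGd2 libraries and at 1058, 833 and 920 in the *Rbpj*-KO libraries. The *Rbpj*-KO libraries were all higher, with no overlap. The share of all genes that did so is not given for this comparison. Between *Rbpj*-KO and *Etv5*-KO in 2i, 35.5% of 11499 genes were higher in *Rbpj*-KO without overlap, so this is common. Throughout, a lack of overlap given without such a share only describes the libraries. The log2 difference was 0.96 (SE 0.14, adjusted p = 5.10e-06), a fold of 1.95.

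*Hey1* (ENSMUSG00000040289.8, chr3:8663359-8667256), a repressor related to the HES proteins, was at 62.7, 52.7 and 52.5 normalised counts in RGd2 in 2i and at 271, 252 and 218 in *Rbpj*-KO. These groups lay far apart, and the log2 difference was 2.11 (SE 0.21, adjusted p = 9.17e-10). *Nrarp* was at 51.1, 42.0 and 121 in RGd2 in 2i and at 229, 199 and 190 in *Rbpj*-KO, again without overlap, with a log2 difference of 1.80 (SE 0.22, adjusted p = 7.58e-08). The value of 121 is that of the shallow clonal RGd2 library, and without it the differences in 2i were 2.14 for *Nrarp*, 1.15 for *Hes1* and 2.09 for *Hey1*, all still called.

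*Hes6* (ENSMUSG00000067071.8, chr1:91411483-91414038) went the other way. It was at 271, 248 and 226 normalised counts in RGd2 in 2i and at 160, 121 and 131 in *Rbpj*-KO, with no overlap and a log2 difference of −0.90 (SE 0.15, adjusted p = 3.07e-05). Without the shallow clonal library it was −0.95 and still called. Markers moved with the 2i comparison as well. The summed FPKM of the 7 neural progenitor markers was 2.00 to 3.52 in RGd2 and 12.04 to 14.2 in *Rbpj*-KO, where *Neurog2* and *Fabp7* were at 0, that of the 5 formative markers 42.3 to 48.8 and 18.3 to 22.2, and that of the 6 naive markers 799 to 836 and 880 to 957. Of the 7 neural progenitor markers only 1 had a mean of FPKM 1 or more in each group. The part of all these markers in the differences of the members was not tested.

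At N16h, the same contrast asks what *Rbpj* deletion does once 2i is withdrawn and RGd2 cells have lowered these genes. Again 4 of the 7 members met the minimum and all 4 were called, 3 higher and 1 lower. Of the 11717 genes that met it 22.2% were called, 18.8% higher and 3.41% lower. Over all genes the median was 0.15 on the log2 scale.

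*Hes1* was at 78.4, 70.0 and 94.1 normalised counts in RGd2 at N16h and at 625, 590 and 588 in *Rbpj*-KO. Every *Rbpj*-KO library stood above every RGd2 library several-fold, with a log2 difference of 2.91 (SE 0.16, adjusted p = 2.65e-17). *Hey1* was low in RGd2, at 8.87, 6.79 and 9.21, and at 167, 172 and 188 in *Rbpj*-KO, a log2 difference of 4.42 (SE 0.26, adjusted p = 1.24e-16). *Nrarp* was at 12.6, 14.1 and 19.4 in RGd2 and at 388, 322 and 409 in *Rbpj*-KO, with the largest log2 difference of the members, 4.63 (SE 0.23, adjusted p = 1.92e-18). In 2i the fold for *Nrarp* was 3.48, and at N16h it was 24.7.

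*Hes6*, the HES1 antagonist, was at 313, 296 and 255 normalised counts in RGd2 at N16h and at 129, 115 and 170 in *Rbpj*-KO. The groups did not overlap and the log2 difference was −1.07 (SE 0.14, adjusted p = 3.65e-07). Relative to the median of all genes it was −1.21.

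**Figure D2:**
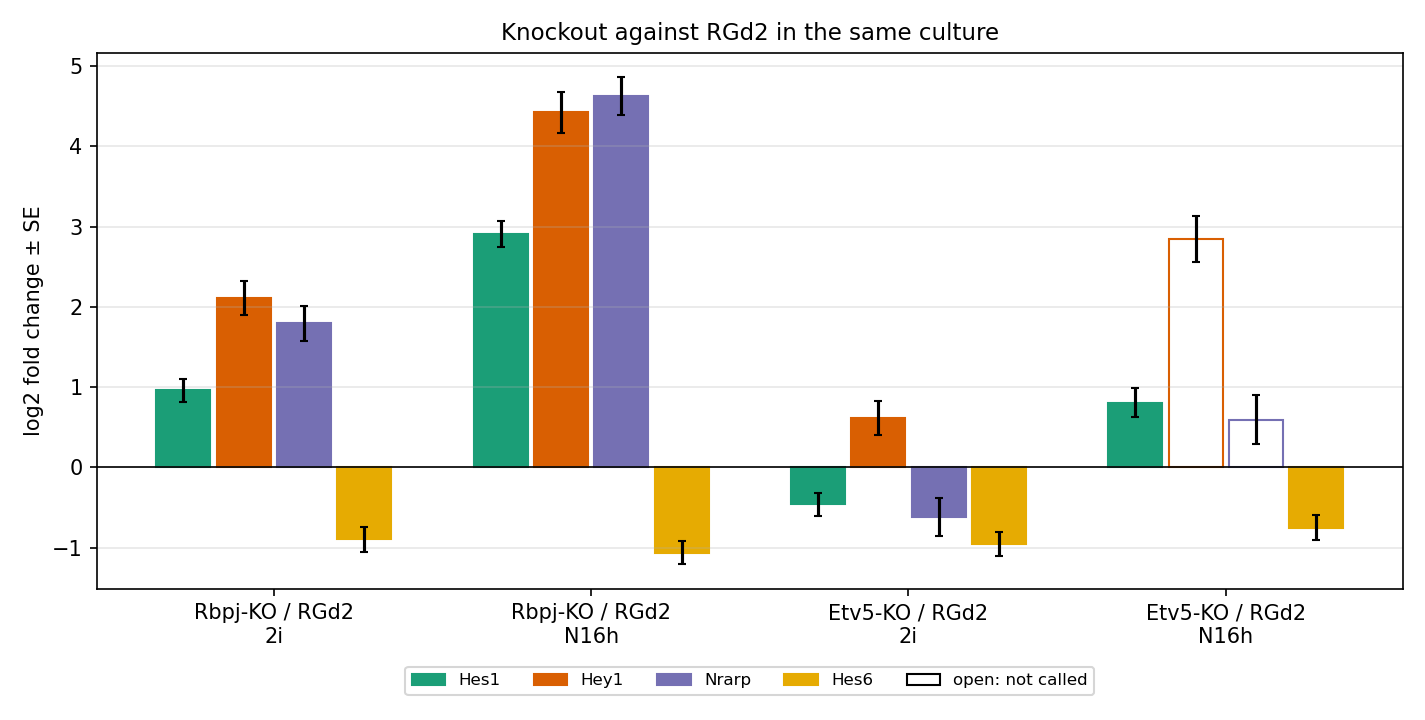
Log2 fold change of Rbpj-KO and of Etv5-KO against RGd2 (y axis) in 2i and at N16h (x axis), as a bar each for Hes1, Hey1, Nrarp and Hes6 with error bars of 1 SE and open bars where a difference was not called. For Rbpj-KO the bars of Hes1, Hey1 and Nrarp are above 0 in 2i and reach 2.91, 4.42 and 4.63 at N16h, and those of Hes6 are below 0 in all 4 comparisons.

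Whether the effect of *Rbpj* deletion itself differed between N16h and 2i was tested as a difference of differences. It was called for 3 members, all higher, against 4.03% of 12162 genes called in either direction and 3.79% higher. The log2 differences between the effects were 1.95 for *Hes1* (SE 0.21, adjusted p = 7.45e-08), 2.31 for *Hey1* (adjusted p = 2.71e-05) and 2.83 for *Nrarp* (adjusted p = 2.14e-07), with a median of 0.22 over all genes. For *Hes6* it was −0.17, with an adjusted p of 0.731, and its 95% interval ran from −0.59 to 0.25, so a change in the *Hes6* effect of that size is not excluded.

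The difference of differences is made up of a decline in RGd2 and of what the *Rbpj*-KO lines did over the same hours. In RGd2 between 2i and N16h, *Hes1* fell from 482, 360 and 646 to 78.4, 70.0 and 94.1 normalised counts, a log2 difference of −2.58 (SE 0.16, adjusted p = 2.06e-16). *Nrarp* fell by 1.96 on the log2 scale, and *Hey1* differed by −2.80 with an adjusted p of 1.66e-10 but a mean FPKM under 1 in both groups, so it does not count as a call. That makes 2 members called, both lower, where 46.0% of 11748 genes were called and 37.4% were lower, with a median of −0.23. Without the shallow clonal library the *Nrarp* difference was −1.62 and its FPKM fell under the minimum in both groups, which leaves 1 call. *Hes6* differed by 0.20 (adjusted p = 0.285), and by 0.43 under TMM scaling, where it was called.

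In *Rbpj*-KO, the same 16 hours left *Hes1* and *Hey1* far above RGd2. *Hes1* went from 1058, 833 and 920 to 625, 590 and 588 normalised counts, a smaller decline of −0.63 on the log2 scale (SE 0.14, adjusted p = 0.000586). *Nrarp* moved up, from 229, 199 and 190 to 388, 322 and 409, with a log2 difference of 0.87 (SE 0.18, adjusted p = 0.00033). *Hey1* differed by −0.48, with an adjusted p of 0.0516 that passes the threshold at 0.0422 when the clonal line is kept as a block. Of the members 2 were called, against 27.9% of 11776 genes.

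In terms of the switch described above, higher *Hes1*, *Hey1* and *Nrarp* without RBPJ, in 2i and at N16h, is the direction of lost repression. None of these 3 genes was lower in *Rbpj*-KO than in RGd2 at either time, the direction that lost activation would give, and *Hes6* alone had it at both. In *Etv5*-KO, with an intact *Rbpj* locus, *Hes1* and *Hey1* were also higher than in RGd2 at N16h, by 0.81 and 2.85. *Hey1* was under FPKM 1 in both groups there, and *Nrarp* differed by 0.60 without a call. *Hes6* was called lower in *Etv5*-KO too, with log2 differences of −0.95 in 2i and −0.75 at N16h. Its differences between *Rbpj*-KO and *Etv5*-KO were 0.055 in 2i and −0.31 at N16h, neither called. The causes of the higher *Hes1*, *Hey1* and *Nrarp* and of the lower *Hes6* in *Rbpj*-KO were not tested.

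Markers moved with this comparison too. The summed FPKM of the 6 naive markers was 341 to 356 in RGd2 at N16h and 499 to 548 in *Rbpj*-KO, that of the 5 formative markers 125 to 165 and 59.6 to 63.7, and that of the 7 neural progenitor markers 3.42 to 4.47 and 19.7 to 21.5, the last with *Nes* at 220 and 2725 normalised counts. *Neurog2* was at 0 in both groups. Their part in the result was not tested, and in bulk RNA fewer cells of a type and less RNA per cell cannot be told apart. Set beside naive RGd2 cells, *Hes1* in *Rbpj*-KO at N16h, at 588 to 625, overlapped with the RGd2 2i libraries at 360 to 646, and *Nrarp* at 322 to 409 lay above them all, at 42.0 to 121.

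*Etv5*-KO lines went through the same cultures with an intact *Rbpj* locus, and were set against the same RGd2 libraries as *Rbpj*-KO. Their *Rbpj* transcripts overlapped with RGd2 in 2i. At N16h *Rbpj* was called higher in *Etv5*-KO, at a mean of 19399 normalised counts against 12574 in RGd2. The log2 difference was 0.63 (SE 0.22, adjusted p = 0.0337). In 2i, 4 members were called, 1 higher and 3 lower, against 34.0% of 11569 genes, 6.14% higher and 27.9% lower, with a median of −0.23 over all genes. *Hes6* was at 137, 128 and 124 normalised counts, below all RGd2 libraries, with a log2 difference of −0.95 (SE 0.14, adjusted p = 2.38e-06). *Hey1* was at 97.5, 99.6 and 65.6, above RGd2 without overlap, with a difference of 0.62 (adjusted p = 0.027).

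*Hes1*, at 372, 361 and 312 in *Etv5*-KO in 2i, and *Nrarp*, at 42.5, 30.4 and 41.0, overlapped with RGd2. Their differences of −0.46 and −0.62 were called, but scaled on all genes (TMM) they were −0.24 and −0.35 and were not, and without the shallow clonal RGd2 library they were −0.27 and −0.28 and were not. The call of *Hes1* was also lost without RGd2 2i replicate 31 or *Etv5*-KO 2i replicate 27, that of *Nrarp* without either of these or *Etv5*-KO 2i replicate 26, and that of *Hey1* without RGd2 2i replicate 32 or *Etv5*-KO 2i replicate 25 or 26 and, at 0.52 with an adjusted p of 0.0582, with the clonal line as a block. *Hes6* kept its call in each of these.

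At N16h, 2 members met the FPKM minimum in *Etv5*-KO against RGd2, and these were called, 1 higher and 1 lower. Of 11735 genes 32.5% were called, with a median of 0.24. *Hes1* was at 142 and 137 normalised counts, above all RGd2 libraries at 70.0 to 94.1, with a log2 difference of 0.81 (SE 0.18, adjusted p = 0.000676), or 0.58 under TMM scaling, still called. *Hes6*, at 164 and 178, was below all RGd2 libraries, with a difference of −0.75 (adjusted p = 0.000286). *Hey1*, at 67.2 and 50.7 against at most 9.21, differed by 2.85 with an adjusted p of 5.23e-10 while both groups were under FPKM 1. *Nrarp*, at 21.4 and 23.9, differed by 0.60 with an adjusted p of 0.161.

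The effect of *Etv5* deletion also differed between N16h and 2i for 3 members, all higher, in a contrast where 37.3% of 12246 genes were called, 36.7% higher, and where the median of all genes was 0.47. The log2 differences were 1.27 for *Hes1*, 2.23 for *Hey1* and 1.21 for *Nrarp*, or 0.80, 1.76 and 0.74 relative to that median. The *Nrarp* value was not called without RGd2 2i replicate 33 (0.87) or *Etv5*-KO N16h replicate 18 (1.13), nor under TMM scaling (0.71), and that of *Hey1* fell under the FPKM minimum without *Etv5*-KO 2i replicate 26 (2.33).

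Set directly against each other, *Rbpj*-KO held more *Hes1*, *Hey1* and *Nrarp* than *Etv5*-KO at both times. In 2i these 3 members were called higher against 26.3% of 11499 genes called and 20.8% higher and a median of 0.15, with log2 differences of 1.42, 1.49 and 2.42 for *Hes1*, *Hey1* and *Nrarp*. At N16h the differences were 2.11, 1.58 and 4.03, against 17.9% of 11826 genes called and 5.56% higher. The genotypes did not overlap for any of the 3, and the same held, with *Rbpj*-KO higher, for 35.5% of these genes in 2i and 16.9% at N16h. *Hes6* differed by 0.055 in 2i (adjusted p = 0.841) and by −0.31 at N16h (adjusted p = 0.216), with 95% intervals of −0.25 to 0.36 and −0.64 to 0.014, so no difference in *Hes6* between the genotypes was found, and one within these bounds cannot be seen here. The naive markers summed to 653 to 703 FPKM in *Etv5*-KO at N16h, above *Rbpj*-KO.

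From N16h to N72h in unmodified cells all 3 called members rose, where 60.9% of 12280 genes were called, 31.3% higher. *Hes1* went from 78.4, 70.0 and 94.1 to 360, 370 and 345 normalised counts, overlapping with RGd2 in 2i and in 2i-p5, with a log2 difference of 2.16 (SE 0.16, adjusted p = 8.50e-15). *Nrarp* went from 12.6, 14.1 and 19.4 to 136, 134 and 122, a difference of 3.11 (SE 0.24, adjusted p = 3.08e-14). *Hes6* went from 313, 296 and 255 to 1132, 1196 and 1130, its highest level of all conditions, a difference of 2.00 (SE 0.13, adjusted p = 6.02e-16).

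*Hey1* went from 8.87, 6.79 and 9.21 to 53.9, 82.8 and 89.6 normalised counts. The log2 difference was 3.22 (adjusted p = 3.33e-13), yet its mean FPKM stayed under 1 in both groups, and without the N72h library at 53.9, replicate 7, it passed the minimum, at 3.41. No *Rbpj*-KO library at N72h was analysed here, so the dependence of these rises on RBPJ could not be tested. At N72h the naive markers summed to 51.9 to 56.0 FPKM, the formative markers to 506 to 521 and the neural progenitor markers to 44.3 to 50.4, and *Zic1* and *Fabp7* of the last were at 0. Of the 7 neural progenitor markers only 1 had a mean of FPKM 1 or more at N72h. The part of these markers in the rises was not tested.

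**Figure D3:**
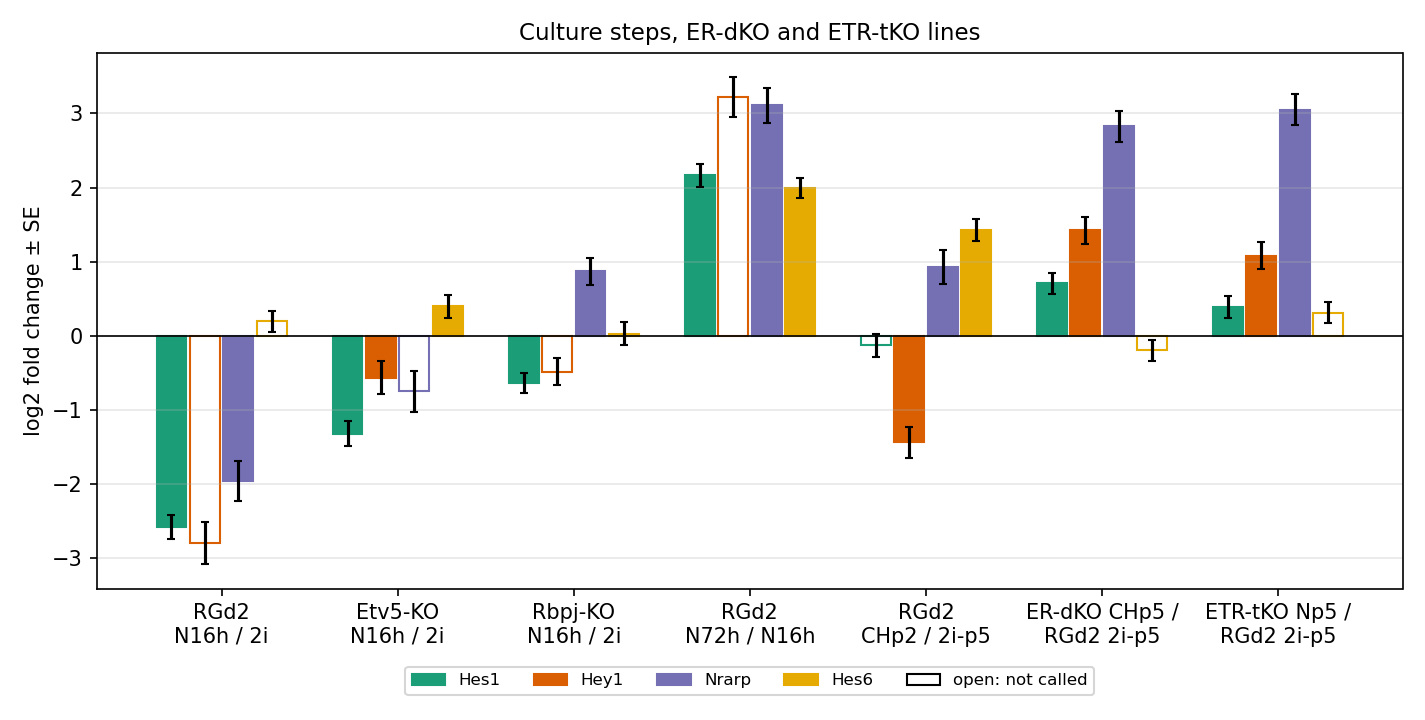
Log2 fold change (y axis) in 7 comparisons between cultures of 1 genotype or between ER-dKO or ETR-tKO and RGd2 in 2i-p5 (x axis), as a bar each for Hes1, Hey1, Nrarp and Hes6 with error bars of 1 SE and open bars where a difference was not called. Hes1 and Nrarp are below 0 in RGd2 from 2i to N16h (−2.58 and −1.96) and above 0 from N16h to N72h (2.16 and 3.11), and Nrarp is the tallest bar in ER-dKO and ETR-tKO (2.82 and 3.05).

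Against the long-term 2i-p5 culture, *Hes6* and *Nrarp* were higher and *Hey1* was lower in both other late cultures, and the comparisons share the 2i-p5 libraries. The 2i-p5 libraries held 196, 192 and 198 normalised counts of *Hes6*, 47.1, 63.1 and 62.7 of *Nrarp* and 163, 177 and 232 of *Hey1*. At N72h the log2 differences were 2.56 for *Hes6*, 1.14 for *Nrarp* and −1.35 for *Hey1*, against 57.1% of 12247 genes called and a median of 0.11. In CHp2, where *Hes6* was at 547, 543 and 486, *Nrarp* at 132, 105 and 103 and *Hey1* at 72.3, 73.8 and 67.3, they were 1.43, 0.93 and −1.44, against 42.2% of 12054 genes called and a median of 0.17.

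The sign of *Hey1* depends on the reference. With RGd2 in 2i in place of 2i-p5, *Hey1* differed by 0.42 at N72h and by 0.33 in CHp2, because 2i-p5 itself held more *Hey1* than 2i, by 1.77 on the log2 scale (SE 0.21, adjusted p = 7.31e-08). In that comparison of the 2i cultures 2 members were called, against 52.3% of 11552 genes called and 49.4% lower, with a median of −0.37. *Hes6*, at −0.37, was the other, and equals that median: under TMM scaling it was −0.0015 and not called, with the clonal line as a block it was −0.35 (adjusted p = 0.0689), and leaving out any of 5 of the 6 libraries ended the call. *Hes1* differed by −0.27 and *Nrarp* by 0.0066, neither called.

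Within *Etv5*-KO, *Hes1* fell between 2i and N16h by 1.32 on the log2 scale (SE 0.17, adjusted p = 5.01e-08), from 372, 361 and 312 to 142 and 137 normalised counts. In total 3 members were called there, 1 higher and 2 lower, against 40.7% of 11832 genes, with a median of 0.24. The others were *Hes6*, at 0.40, and *Hey1*, at −0.57, with adjusted p of 0.0456 and 0.0452. With the clonal line as a block these were 0.44 (adjusted p = 0.0518) and −0.47 (adjusted p = 0.121), and each was lost on leaving out single *Etv5*-KO libraries (*Hes6* without replicate 26, 27, 17 or 18, from 0.34 to 0.46, and *Hey1* without 25, 26 or 18, from −0.38 to −0.48). Under TMM scaling *Hes6* was 0.17 (adjusted p = 0.371) and under median-of-ratios scaling 0.19, neither called, while *Hey1* was −0.78 and called under TMM.

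ER-dKO and ETR-tKO lines were targeted at *Rbpj* as well and were kept over 5 passages outside 2i. Against RGd2 in 2i-p5 or 2i, the deletion of *Rbpj*, the further deletions and the medium cannot be told apart in these lines. The ER-dKO libraries held 599, 691 and 660 normalised counts of *Hes1*, 554, 513 and 487 of *Hey1* and 404, 416 and 435 of *Nrarp*. Against 2i-p5, 3 members were called, all higher, and 42.4% of 11562 genes were called, 33.9% higher, with a median of 0.20. The log2 differences were 0.71 for *Hes1* (SE 0.14, adjusted p = 0.00014), 1.42 for *Hey1* (SE 0.18, adjusted p = 4.12e-08) and 2.82 for *Nrarp* (SE 0.21, adjusted p = 5.09e-14). None of the 3 overlapped with 2i-p5, where 51.3% of genes were higher without overlap. *Hes6* differed by −0.20 without a call, by −0.27 without a call when replicate 12 is left out, and by −0.40 with a call under TMM scaling. With RGd2 in 2i as the reference *Hey1* differed by 3.19, *Hes1* by 0.44, *Nrarp* by 2.83 and *Hes6* by −0.56, all called.

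Against RGd2 in Chiron at an earlier passage, ER-dKO had 4 members called, 3 higher and 1 lower, where 49.7% of 12083 genes were called. The differences were 0.84 for *Hes1*, 2.86 for *Hey1*, 1.89 for *Nrarp* and −1.62 for *Hes6*, which stood at 152, 171 and 190. Passage and genotype cannot be told apart in this comparison. Without the library labelled ER-dKO CHp5 replicate 12 they were 0.83, 2.90, 1.86 and −1.70, and against 2i-p5 the values of *Hes1*, *Hey1* and *Nrarp* were 0.70, 1.46 and 2.80, with each call kept. Its own levels, the third of each triple, lay with those of the other two.

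The ETR-tKO libraries, grown with neither inhibitor, held 452, 577 and 534 normalised counts of *Hes1*, 311, 437 and 481 of *Hey1* and 498, 455 and 511 of *Nrarp*, its highest level. Against 2i-p5, 3 members were called, all higher, and 47.3% of 11814 genes were called, 37.7% higher, with a median of 0.27. *Nrarp* differed by 3.05 (SE 0.21, adjusted p = 4.10e-15) and *Hey1* by 1.08 (SE 0.18, adjusted p = 5.86e-06). With RGd2 in 2i as the reference they were 3.05 and 2.85, so the size of the *Hey1* difference depends on the reference. The *Hes1* difference of 0.39 (adjusted p = 0.0303) came with overlapping groups, was 0.13 under TMM scaling and 0.12 without a call with RGd2 in 2i as the reference, and was not called without 2i-p5 replicate 1 or 3 or ETR-tKO replicate 14 or 15 (0.31 to 0.37).

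Against unmodified cells in N2B27, the ETR-tKO lines had 4 members called at N72h, 3 higher and 1 lower, with 59.1% of 12338 genes called and a median of 0.11. *Hes1* differed by 0.54, *Hey1* by 2.43 and *Nrarp* by 1.91. *Hes6*, at 276, 236 and 213 in ETR-tKO, differed by −2.25 (SE 0.14, adjusted p = 2.26e-17). Against RGd2 at N16h the differences were 2.70, 5.64 and 5.02 for *Hes1*, *Hey1* and *Nrarp*, with 45.5% of 11918 genes called, 31.0% higher, and a median of 0.12. *Hes6* there differed by −0.25 without a call and by −0.36 with one under TMM scaling. These lines differ from RGd2 in 3 genes and in time in culture, which cannot be told apart.

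*Hey2* (ENSMUSG00000019789.9, chr10:30832359-30842801), the other HEY repressor that was tested, stayed under FPKM 1 in all conditions, with a highest condition mean of 0.408, and is never counted as a call. In 2i it was at 19.7, 4.58 and 0 normalised counts in RGd2, where 0 is the shallow library, and at 29.5, 24.2 and 27.7 in *Rbpj*-KO, with a log2 difference of 1.39 (SE 0.46, adjusted p = 0.0452). Single libraries decide this value: it was 2.83 without RGd2 2i replicate 31 and 0.91 without RGd2 2i replicate 32 (adjusted p = 0.303), and the adjusted p exceeded 0.05 on leaving out any of the other 4 libraries too. At N16h it was at 8.87, 8.36 and 10.2 in RGd2 and at 30.8, 39.6 and 50.6 in *Rbpj*-KO, without overlap, with a difference of 2.13 (SE 0.42, adjusted p = 0.00021). By the adjusted p alone 17.9% of 18892 genes passed in that comparison, 14.5% higher. *Hey2* was also low in 2i-p5, at 7.07, 7.89 and 7.20, and reached 38.4, 35.9 and 39.6 at N72h and 49.8, 46.2 and 54.9 in ETR-tKO.

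*Hes5* (ENSMUSG00000048001.7, chr4:154960923-154962371), the family member most tied to neural progenitors, had at most 14 counts in a library and 3 or fewer in 22 of 32. *Heyl* (ENSMUSG00000032744.4, chr4:123233556-123249875), another HEY repressor, had at most 6 and was at 0 in 21. Neither passed the count filter and neither was tested. *Hes5* was at 0, 0 and 1.02 normalised counts in RGd2 at N16h and at 1.98, 5.47 and 1.30 in *Rbpj*-KO, from at most 4 counts in a library, and at 2.36, 1.31 and 1.03 in 2i-p5 against 4.86, 7.52 and 3.18 in ETR-tKO. In both pairs the targeted lines were higher without overlap, on counts too few to judge. In 2i *Hes5* overlapped between RGd2 and *Rbpj*-KO, and its highest level was in RGd2 at N72h, at 5.18, 7.81 and 8.53. *Heyl* reached at most 2.43 in the lines with a targeted *Rbpj* and 3.74 in the others.

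**Figure D4:**
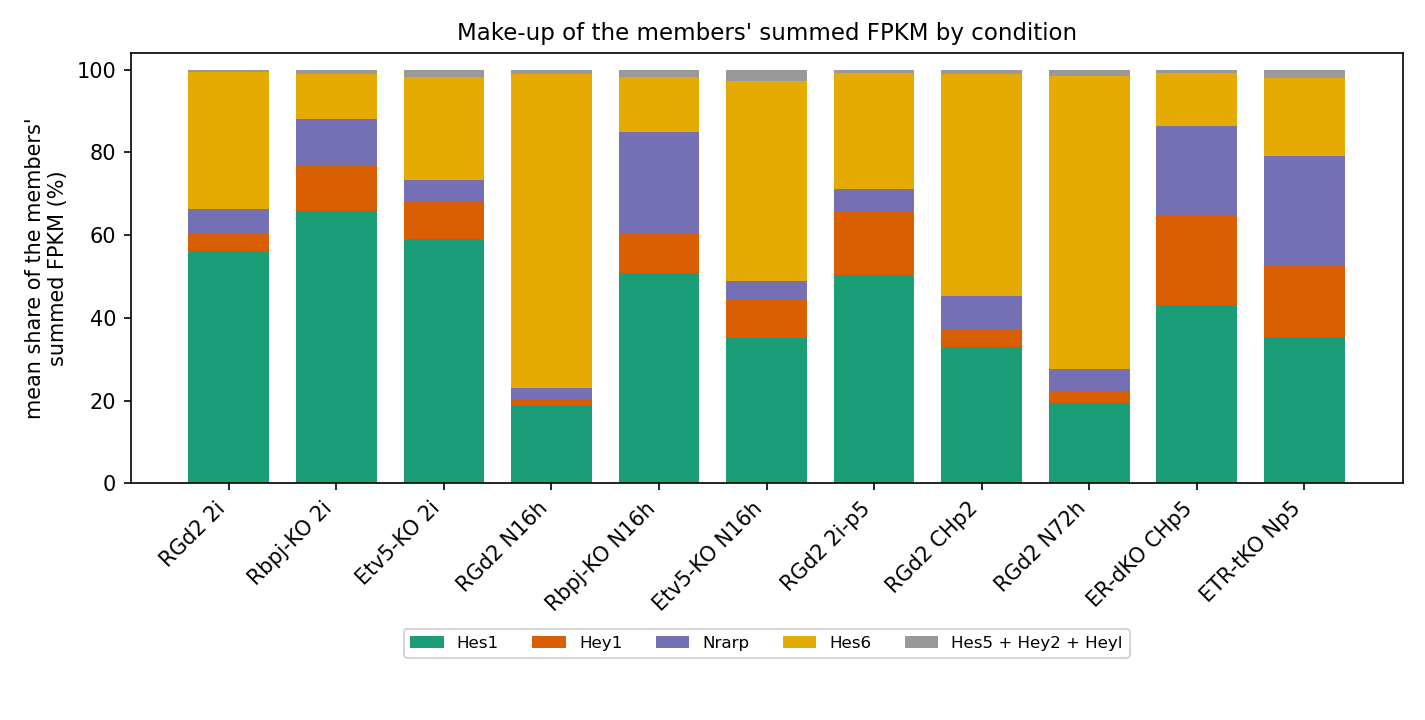
Share of the summed FPKM of the 7 genes (y axis, percent, mean over libraries) taken by each member in the 11 conditions, as stacked bars with Hes5, Hey2 and Heyl joined in grey. Hes1 holds 56.1% in RGd2 in 2i and 19.0% at N16h, where Hes6 holds 75.8%, and in Rbpj-KO Hes1 is the largest share at both times.

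As shares of the summed FPKM of the 7 members, which can be compared between genes, the make-up of the family switched. In RGd2 *Hes1* took 56.1% in 2i, 19.0% at N16h and 19.5% at N72h, and *Hes6* took 33.0%, 75.8% and 70.8%. In *Rbpj*-KO *Hes1* took 65.8% in 2i and 50.9% at N16h, *Hes6* 10.8% and 13.1%, and *Nrarp* 24.8% at N16h. In ER-dKO and ETR-tKO *Hes1* took 43.1% and 35.5% and *Hes6* 12.7% and 18.7%, and in ER-dKO without replicate 12 they took 43.1% and 12.1%.

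The ratio of *Hes1* FPKM to *Hes6* FPKM within a library needs no scaling between libraries, and was chosen after the values were seen. It was 1.29 to 2.54 in RGd2 in 2i, 0.210 to 0.328 at N16h and 0.271 to 0.282 at N72h. In *Rbpj*-KO it was 5.87 to 6.22 in 2i and 3.07 to 4.57 at N16h, above every RGd2 and *Etv5*-KO library. *Etv5*-KO had 2.23 to 2.499 in 2i and 0.684 to 0.768 at N16h, so in these lines the ratio moved with 2i withdrawal as in RGd2, from a higher start than 2 of the 3 RGd2 libraries.

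The upstream side of the pathway changed as well. Of the 4 Notch receptors all were lower in RGd2 at N16h than in 2i, where 37.4% of all genes were, among them *Notch4* at −1.21, *Notch2* at −1.03 and *Notch3* at −1.004, while of 5 ligands *Dll1* rose by 2.94 and *Jag1* fell by 1.69 on the log2 scale. In *Rbpj*-KO against RGd2 at N16h, 3 of 4 receptors were higher (*Notch4* 1.51, *Notch3* 0.96, *Notch1* 0.90), and of the ligands *Jag1* was higher (1.52) and *Dll1* and *Jag2* were lower (−3.02 and −0.79), beside 18.8% of all genes higher and 3.41% lower. In 2i, 1 receptor was higher (*Notch3* 0.62), 1 lower (*Notch2* −0.36), and *Jag1* and *Jag2* differed by 0.69 and −1.29, beside 5.24% of all genes higher and 6.12% lower.

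Among 8 proneural factors and other known targets of HES repression, 0 were higher in *Rbpj*-KO at N16h and 3 were lower, and several of the others were near 0 in *Rbpj*-KO, so no median is given. *Gadd45g*, a growth arrest gene and target of HES1, differed by −6.44 and *Dll1*, a Notch ligand, by −3.02, while *Neurog3*, a proneural factor, had a mean of 2.13 normalised counts in *Rbpj*-KO against 49.5 in RGd2. In 2i, 0 were higher and 2 were lower, *Gadd45g* at −4.38 and *Neurog3*, with means of 0.298 and 90.4. Of all genes 18.8% were higher and 3.41% lower at N16h, and 5.24% and 6.12% in 2i. In RGd2 between 2i and N16h, 3 of the 8 were called higher and 0 lower, *Dll1* at 2.94, *Gadd45g* at 2.15 and *Neurod1* at 1.88, where 8.63% of all genes were higher and 37.4% lower. *Neurog3* went from a mean of 90.4 to 49.5 normalised counts without a call.

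Of the 4 *Id* genes, whose products block proneural partners, 3 were higher in *Rbpj*-KO at N16h (*Id4* 2.85, *Id1* 2.65 and *Id3* 1.76) and 2 in 2i (*Id3* 1.57 and *Id4* 0.79). These counts and those that follow stand beside 18.8% of all genes higher and 3.41% lower at N16h, and 5.24% and 6.12% in 2i. RBPJ and its 6 coactivators had 0 higher and 1 lower at N16h, *Rbpj* itself at −2.22, and the same in 2i. Of 10 RBPJ corepressors 3 were higher at N16h, among them *Spen* at 1.18 and *L3mbtl3* at 0.55, and of 6 Groucho genes 2 were higher (*Tle3* 0.69 and *Tle1* 0.59) and 1 lower (*Tle6* −1.07). Of 21 processing and modifier genes 5 were higher and 2 lower, led by *Dtx1* at 1.05 and *Dtx4* at −1.03, both encoding Deltex ubiquitin ligases, and of 6 other *Hes*-related repressors 1 was higher, *Bhlhe40*.

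From N16h to N72h in RGd2, where *Hes1*, *Nrarp* and *Hes6* rose, 3 of 4 receptors were higher, with *Notch3* at 2.14 and *Notch1* at 1.20, and *Notch4* fell by 3.63 on the log2 scale. Of the ligands 3 were higher, *Dll3* at 2.81, *Jag2* at 2.14 and *Jag1* at 1.20, and *Dll1* was lower at −0.72. In this comparison 31.3% of all genes were higher and 29.6% lower. Modifiers went both ways, 8 higher and 7 lower of 21, a share near that of all genes, with *Lfng*, a glycosyltransferase acting on Notch, at 3.05.

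The genes closest in pattern to each member, by Pearson's r over the 11 condition means among 13324 genes with FPKM 1 or more in some condition, were not other members. For *Nrarp* they were *Prickle1* (0.944), *Tmem219* (0.932) and *Stim1* (0.917), and for *Hey1* *Serhl* (0.940), *Amhr2* (0.939) and *Gstm6* (0.938). For *Hes1* they were *Eci2* (0.944), *Atg4c* (0.938) and *Gnai2* (0.927), and for *Hes6* *Chchd6* (0.971), *Nt5dc2* (0.969) and *Cnksr3* (0.956). Ranked by Spearman's rho instead, *Prickle1* (0.945) stayed first for *Nrarp*, while *Gstm6* (0.955) led for *Hey1*, *Cnksr3* (0.936) for *Hes6* and *Tpmt* (0.945) for *Hes1*. These are the highest of many values over 11 points and are given as a description.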

How the data were processed

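Strand-specific paired-end RNA-seq of 32 libraries was analysed. The authors depleted ribosomal RNA (the labels name polyA RNA), added ERCC spike-ins, ran Trim Galore on the reads and TopHat2 against mm10 with Gencode gene models, and counted unique primary matches with featureCounts. The deposited values are raw counts per gene and spike-in, without normalization, and the deposited table also gives the gene lengths used here for FPKM. Versions of these tools are not given in the sources used here. Identifiers without a symbol numbered 193 and held 0.02589% of counts. Chi-square per gene between replicates was 3.391 to 44.33, where counting noise gives about 1, so no library was a copy of another.

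Libraries were scaled by median-of-ratios factors from the 52 spike-ins detected in each of them. The 18892 genes passing filterByExpr were tested with edgeR 4.0.16 in R 4.3.3 (glmQLFit and glmQLFTest, two-sided, Benjamini-Hochberg), with all libraries in 1 model and 1 coefficient for each condition. Genes were called at an adjusted p under 0.05 with a mean of FPKM 1 or more in at least 1 of the groups. Alternatives used TMM, median-of-ratios and total spike-in scaling, other filters, DESeq2 1.42.0, the compared libraries alone, RGd2 2i as reference, each library left out, and the clonal line as a replicate block. The block follows the clone named in the labels: same-line residuals correlated at 0.111 to 0.249 in *Rbpj*-KO and at 0.014 and 0.117 in *Etv5*-KO.

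The 7 members, the Notch pathway lists and the marker lists were chosen with earlier results of these data known. Genes named are the members, the targeted genes, for each member the 3 genes with the highest Pearson r, and from each list up to 3 called genes with the largest difference. Some genes of these lists are not reported here. Intervals are at 95%, from the fit and its spread between libraries. Promoter windows come from RefSeq (GRCm38.p6). The tests were checked on simulated counts. Figures were drawn with matplotlib 3.10.9 in Python 3.11.15.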

Additional observations from a re-analysis of the deposited data

Results flagged for a closer look

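For 6 results the effect of a deletion differed between N16h and 2i by the test of the difference itself, edgeR's quasi-likelihood test with p adjusted after Benjamini-Hochberg. For *Rbpj* deletion the log2 differences between the effects (N16h minus 2i) were 1.95 for *Hes1*, 2.31 for *Hey1* and 2.83 for *Nrarp*, and for *Etv5* deletion they were 1.27 for *Hes1*, 2.23 for *Hey1* and 1.21 for *Nrarp*. Of all genes 4.03% were called in the *Rbpj* contrast, with a median of 0.22, and 37.3% in the *Etv5* contrast, with a median of 0.47. For *Etv5* deletion the call of *Nrarp* was lost in 5 of 20 alternatives, among them TMM scaling, and that of *Hey1* in 1. All 6 contrasts share the RGd2 libraries at 2i and N16h, in which these genes were lowest at N16h. No group held the 4 libraries that Dixon's test of a single outlying library needs, so it was not run.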

How the results depend on the processing

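Each difference of the 5 tested members in each comparison, and each count of members called, was recomputed under the alternatives. The calls of *Hes1*, *Hey1*, *Nrarp* and *Hes6* in *Rbpj*-KO against RGd2 in 2i and at N16h kept their direction and stayed past the threshold in every alternative, and so did the difference of the *Rbpj* effects for *Hes1*, *Hey1* and *Nrarp*. The clonal block ended or made only the calls given here and beside their results.

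The count of members called moved by more than 1.5 times only as follows, and by at most 1 in the other comparisons. *Etv5*-KO against RGd2 in 2i went from 4 to 2 under TMM or median-of-ratios scaling, to 1 with only the compared libraries, and to between 2 and 3 with a library left out. RGd2 N16h against 2i went from 2 to between 1 and 2 with a library left out. RGd2 N72h against N16h went from 3 to 5 without the FPKM minimum. RGd2 2i-p5 against 2i went from 2 to 1 under TMM or median-of-ratios scaling, without a low-count filter, with the clonal line as a replicate block and with only the compared libraries, and to between 1 and 2 with a library left out. *Etv5*-KO N16h against 2i went from 3 to 1 without a low-count filter or with the block, and to between 1 and 2 with a library left out.

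Signs changed for small or low values. For *Hes6* the difference of the *Etv5* effects was −0.26 under TMM and −0.25 under median-of-ratios scaling, *Rbpj*-KO against *Etv5*-KO in 2i was −0.11 under both and −0.044 to 0.14 with a library left out, *Rbpj*-KO N16h against 2i was −0.14 to 0.14 with a library left out, and ETR-tKO against RGd2 in 2i as the reference was −0.056. For *Hey1* the 2i reference gave 0.42 at N72h and 0.33 in CHp2. For RGd2 2i-p5 against 2i, *Hes1* was 0.090 and 0.072 under TMM and median-of-ratios scaling, and *Nrarp* was −0.025 with total spike-in counts, −0.026 with the block, −0.13 with only the compared libraries and −0.29 to 0.35 with a library left out. For *Hey2*, with single-digit counts in some RGd2 libraries, leaving out a library gave −0.69 to 1.23 for the *Rbpj* effect, −0.80 to 1.12 for the *Etv5* effect, −0.65 to 1.27 for RGd2 N16h against 2i (0.13 under TMM and 0.15 under median-of-ratios scaling) and −0.93 to 0.98 for 2i-p5 against 2i. The cause was not tested, except that the reference, the samples and the filters change by construction. Depth limits *Hes5*, *Heyl* and *Hey2*, and no call was made on members under FPKM 1.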

Other observations

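In *Rbpj*-KO against RGd2 at N16h, where 18.8% of genes were called higher and 3.41% lower, the marker lists gave the following counts. Of 7 mesendoderm markers 1 met the FPKM minimum and was called higher, *Eomes*. Of 5 primitive endoderm markers 2 met it and 1 was called higher, *Dab2*, with a summed level of 1.18 to 9.10 FPKM in *Rbpj*-KO against 0.676 to 2.03 in RGd2. Of 4 endothelial markers 2 met it and 0 were called, and no trophoblast or fibroblast marker met it, so that none could be called. Among naive markers 5 of 6 were called higher and 0 lower, among formative markers 0 higher and 5 of 5 lower, among general pluripotency markers 2 of 3 higher, and among the 3 neural progenitor markers that met the minimum all 3 higher, *Nes*, *Sox1* and *Pax6*.

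Antisense genes overlap *Hes5* and *Nrarp* on the other strand. *Gm20421*, against *Hes5*, had at most 6 counts in a library and *Gm38287*, against *Nrarp*, at most 4, and the counting used strand. *Gm38287* had a mean of at most 2.77 normalised counts in a condition, where *Nrarp* ran from 12.6 to 511. *Gm20421* had a mean of 3.70 in *Etv5*-KO at N16h, where *Hes5* had 1.06, and was at 0 in 4 conditions. These counts are not scaled to exon length and do not rank the levels of the genes.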
